A study of Mus musculus with 9 samples.

Results

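Pou5f1, Sox2 and Nanog, the 3 core pluripotency genes of mouse embryonic stem cells, were followed through lists of open chromatin peaks from 9 libraries. The genes were chosen by name, and every peak overlapping the gene or the 150 kb on either side was taken from each list. Peaks sharing at least 1 bp, whichever lists they came from, were joined into 1 union region. This gave 104 regions out of 116362 in the whole genome: 25 at Pou5f1, 17 at Sox2 and 62 at Nanog. Each region is named by the distance of its centre from the gene's start, positive in the direction of transcription.

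Accessibility was measured by ATAC-seq, where a transposase (Tn5) cuts and tags open DNA. All 9 libraries came from E14 mouse embryonic stem cells of the TOT2N variant, 3 from unmodified cells (WT), 3 from cells with a stably integrated TetR construct and 3 from cells with a stably integrated TetR-MYBTA construct. TetR is the tetracycline repressor, a bacterial DNA-binding protein, and MYB is a transcription factor best known from blood progenitor cells; the title names sustained MYB activity and enhancers as the subject. The labels do not say which promoter drives the constructs, what MYBTA holds, whether a line is 1 clone, or how the cells were grown.

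Pou5f1 encodes the POU-domain factor Oct4, Sox2 an HMG-box factor that binds DNA beside Oct4, and Nanog a homeodomain factor. The 3 proteins bind their own and each other's enhancers and hold stem cells in the undifferentiated state. Much of that control is distal: Pou5f1 has upstream enhancers that are used in different stages of pluripotency, Sox2 depends in these cells on a far downstream control region, and Nanog has enhancers on both sides.

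The stretches just before the 3 gene starts are shown because accessibility over them differed between the genes and, at Nanog, between libraries. The sequences are RefSeq's for GRCm38.p6 (the assembly of mm10), + strand, 5′ to 3′, 250 bases ending at the base before the start. They span chr17:35505782-35506031 for Pou5f1, chr3:34649745-34649994 for Sox2 and chr6:122707239-122707488 for Nanog. Capitals mark matches on either strand to TTTGCAT (most of the octamer motif that Oct4 binds), ACAATG (a Sox motif), GGGCGG (a GC box), CCAAT and TATAAA.

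Pou5f1: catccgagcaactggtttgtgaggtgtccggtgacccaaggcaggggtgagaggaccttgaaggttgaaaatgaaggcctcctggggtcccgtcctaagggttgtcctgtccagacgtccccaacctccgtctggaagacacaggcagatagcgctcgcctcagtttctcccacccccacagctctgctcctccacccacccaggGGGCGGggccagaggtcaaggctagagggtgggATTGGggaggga

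Sox2: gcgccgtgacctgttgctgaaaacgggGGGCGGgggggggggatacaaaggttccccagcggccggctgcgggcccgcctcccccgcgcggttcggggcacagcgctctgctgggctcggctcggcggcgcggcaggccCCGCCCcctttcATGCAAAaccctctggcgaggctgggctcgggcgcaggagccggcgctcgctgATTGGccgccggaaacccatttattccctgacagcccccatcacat

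Nanog: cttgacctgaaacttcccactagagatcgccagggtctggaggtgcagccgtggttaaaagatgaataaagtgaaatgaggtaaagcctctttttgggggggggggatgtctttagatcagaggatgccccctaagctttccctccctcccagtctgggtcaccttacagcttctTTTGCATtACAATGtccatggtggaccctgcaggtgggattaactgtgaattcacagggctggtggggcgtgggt

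Nanog's stretch held TTTGCAT from position -75 and ACAATG from -67, counted back from the start, on the same strand with 1 base between them. Sox2's held TTTGCAT on the other strand, seen as ATGCAAA from -99, GGGCGG on each strand and CCAAT on the other strand. Pou5f1's held GGGCGG from -45 and CCAAT on the other strand from -12. TATAAA was in none of the 3, and no 2 matches overlapped. Of the same stretches of 21263 protein-coding promoters, 3.86% held TTTGCAT, 9.35% ACAATG, 42.6% GGGCGG, 35.4% CCAAT and 11.6% TATAAA. GC content was 52.0% at Nanog, 62.0% at Pou5f1 and 72.0% at Sox2, beside a median of 55.6% over all promoters. These matches describe letters only.

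The lists held 45136 to 70230 peaks from 16.4 M to 23.0 M tags, and 5.48 to 9.78% of tags lay in peaks; TetR-MYBTA replicate 3 had the shortest list and the lowest share of tags in peaks. No list holds a score or a tag count per peak. HOMER writes a list in the order of its peak score, so a peak's place was expressed as a percentile of its own list, 100 being the first, with peaks of 1 score level sharing their mean place. Of 10 stem cell marker genes, 5 had a peak within 1 kb of a gene end in all 9 libraries and 2, Zfp42 and Esrrb, in none. Over all protein-coding genes these shares were 44.2% and 37.5%. The same count in all 9 was 1 of 10 for fibroblast or feeder markers (Twist1), 3 of 10 for blood (Cd34, Spi1 and Tal1), 5 of 10 for neural and 0 of 10 for endoderm markers. The counts in none were 3, 5, 2 and 6 of 10, in the same order. Per library, a mean of 5.0, 6.0 and 5.67 fibroblast or feeder markers had such a peak in TetR-MYBTA, TetR and WT. For stem cell markers the means were 5.33, 6.67 and 5.67. The counts in all 9 libraries do not set the stem cell markers apart from the neural ones (5 of 10 each). They were higher than for the fibroblast or feeder markers (1 of 10), but the means per library of these 2 lists were close. An open gene end is not a transcript, and no expression was measured here.

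**Figure D1:**
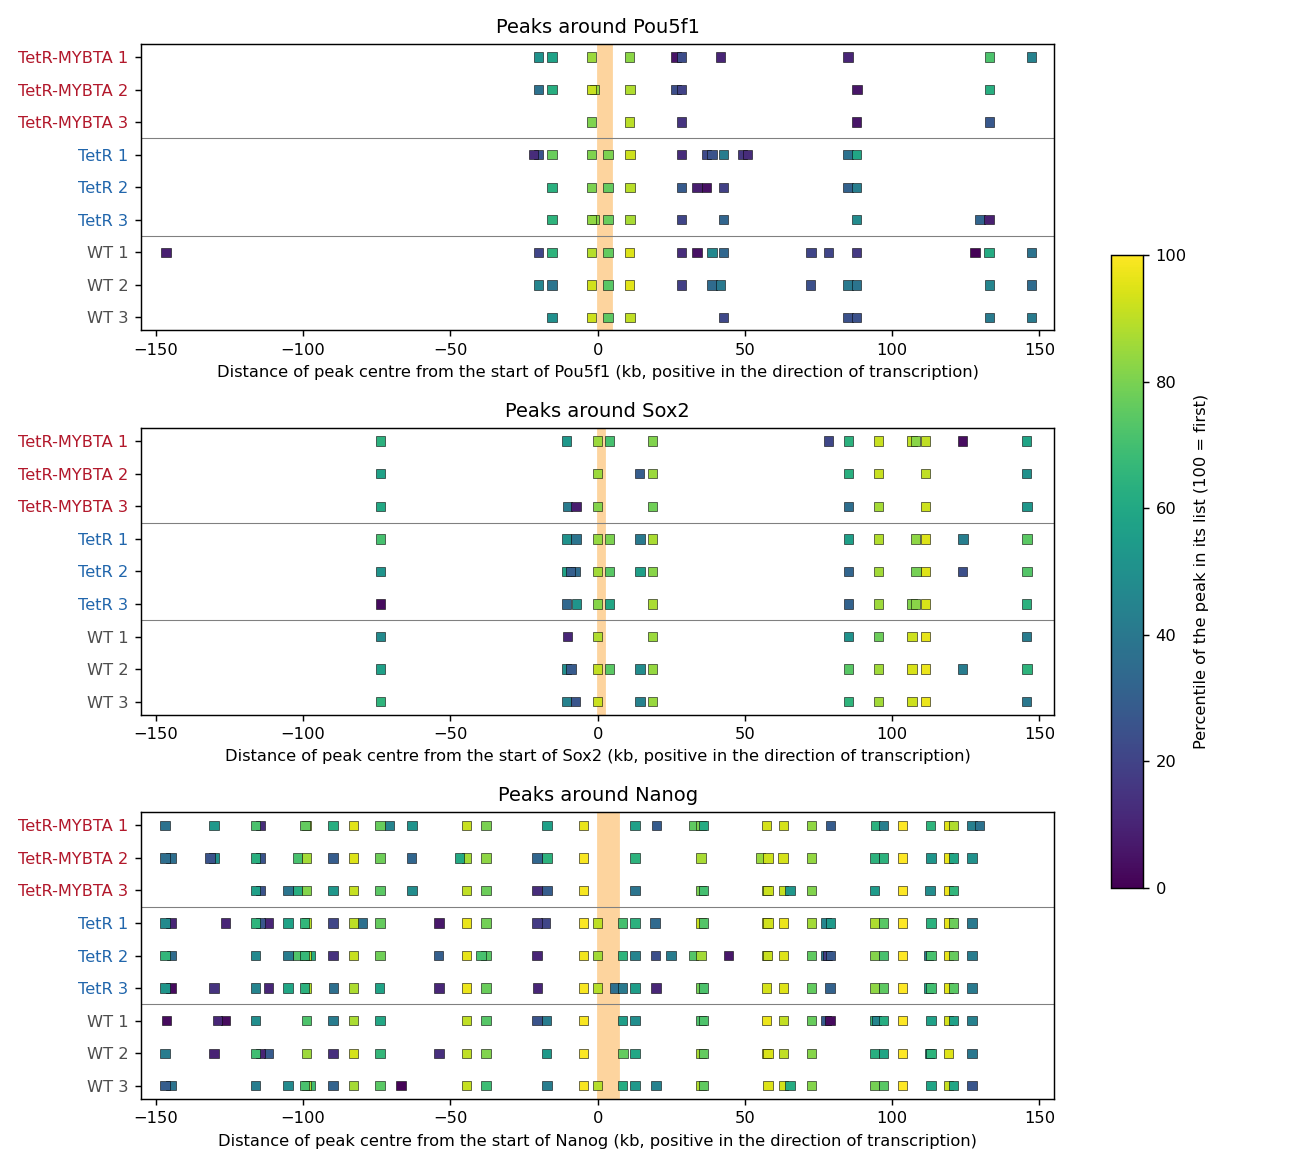
Every peak within 150 kb of Pou5f1, Sox2 and Nanog in each library; the x axis is the distance of the peak centre from the gene start in kb, rows are libraries, the shaded band is the gene and colour is the percentile of the peak in its list. The peak 4.8 kb before the Nanog start and the peak 103.5 kb after it were near the top of every list, whereas the Nanog start itself had a peak in only 4 libraries.

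Open regions stood closer together at Nanog than at the other genes. There were 20.2 union regions per 100 kb in the Nanog window, 8.20 at Pou5f1 and 5.62 at Sox2. The windows also differ in gene content, with 14 protein-coding genes in that of Pou5f1, 8 in that of Nanog and Sox2 alone in its own. A peak in all 9 libraries was found in 24 of the 104 regions (23.1%), beside 22.4% of all union regions: 2 of 25 at Pou5f1, 7 of 17 at Sox2 and 15 of 62 at Nanog. A peak in a single library was found in 26 (25%, beside 26.0% of all regions): 7, 1 and 18. Presence followed the place in the list. This is partly built in, since the median was taken over libraries with a peak and low places lie near the calling threshold. The same split was not made over all union regions. Of 22 regions with a median percentile below 25 none had a peak in all 9 libraries, of 35 between 25 and 50 there was 1, of 23 between 50 and 75 there were 7, and of the 24 above 75 there were 16.

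At Pou5f1, on chromosome 17 (35506032 to 35510777), the upstream enhancer region was open in every library. Its region 2.0 kb before the start (chr17:35503902-35504147, inside the neighbouring RefSeq gene Gm32362) lay at percentiles 85.0, 91.4 and 80.7 in TetR-MYBTA replicates 1 to 3, 80.8, 80.2 and 83.5 in TetR and 88.7, 92.7 and 92.5 in WT. The peak centres fell within 46.5 bp of each other. A second region 1.1 kb before the start (chr17:35504838-35505051) had a peak in 1 TetR-MYBTA and 1 TetR library, at percentiles 83.7 and 81.7. No peak centre lay within 1 kb of the Pou5f1 start in any list, and no region overlapped the printed stretch.

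Inside Pou5f1 the lines differed. The region 3.5 kb after the start (chr17:35509415-35509712; exons and introns were not used here) had no peak in the 3 TetR-MYBTA libraries, percentiles of 80.4, 76.0 and 76.9 in TetR and 75.8, 74.1 and 74.8 in WT. The 6 libraries with a peak thus placed it alike, and the nearest peak of a TetR-MYBTA library was 4.36 kb away. The other region open in all 9 libraries lay 10.9 kb after the start (chr17:35516804-35517125), over the adjoining ends of Tcf19 and Cchcr1, with percentiles from 82.8 to 95.5 and a median of 89.8. Tcf19 and Cchcr1 are neighbours in the same gene-dense stretch. Of the other Pou5f1 regions, those at -15.5, +28.5 (at Psors1c2) and +88.0 kb had a peak in 8 libraries each, and that at +133.0 kb, in Mucl3, in 7.

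At Sox2, on chromosome 3 (34649995 to 34652461), the start was open in every library. The region over it (chr3:34649804-34650080, which covers 191 bases of the printed stretch) had percentiles of 84.8, 84.8 and 81.6 in TetR-MYBTA, 84.1, 85.9 and 82.0 in TetR and 88.3, 90.9 and 91.9 in WT. The WT libraries were the 3 highest. The 2 to 6 kb upstream of the start, where a Sox2 upstream enhancer is known, held no peak in any list. The 2 to 6 kb downstream held 1 region, at +4.0 kb (chr3:34653925-34654140), with a peak in 1 TetR-MYBTA, 3 TetR and 1 WT library at percentiles from 59.3 to 80.1. That region lies, like the gene itself, within the long noncoding gene Sox2ot.

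The window set here for the distal control region of Sox2, 90 to 120 kb downstream, held 4 regions, with no annotated gene over them. Which of these belong to the control region itself was not determined. Those at +95.4 kb (chr3:34745244-34745504) and +111.3 kb (chr3:34761180-34761500) had a peak in all 9 libraries. The +111.3 kb region had the higher mean place of the pair, at percentiles of 90.4, 90.6 and 92.4 in TetR-MYBTA, 94.6, 95.1 and 93.8 in TetR and 96.4, 97.1 and 97.1 in WT. In these list percentiles the lines did not overlap, with TetR-MYBTA lowest and WT highest. Ranked instead among the regions present in all 9 libraries, TetR-MYBTA and TetR overlapped. At +95.4 kb the list percentiles were 91.7, 91.7 and 86.6 in TetR-MYBTA, 88.3, 86.3 and 85.2 in TetR and 77.4, 85.9 and 86.0 in WT.

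Between these 2 constant regions, peaks were listed at different positions in different libraries, and not wholly by line. The region at +106.7 kb (chr3:34756630-34756848) had a peak in all 3 WT libraries, at percentiles 92.4, 93.9 and 92.3, in TetR-MYBTA replicate 1 (90.4) and in TetR replicate 3 (80.9). The region at +108.0 kb (chr3:34757890-34758149) had no WT peak, but one in all 3 TetR libraries, at 83.0, 79.0 and 82.4, and in TetR-MYBTA replicate 1 (82.1). The pair lie 1.04 kb apart at their nearest edges. TetR-MYBTA replicate 1 and TetR replicate 3 had a peak at both, and TetR-MYBTA replicates 2 and 3 at neither. Outside the window of 90 to 120 kb, the start and the regions at -73.7, +18.6, +85.1 and +145.7 kb were also present in every list. Those 4 regions had median percentiles of 57.3, 84.7, 56.2 and 58.2.

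At Nanog, on chromosome 6 (122707489 to 122714633), the strongest placement near the gene belonged to the enhancer 4.8 kb before the start (chr6:122702549-122702819). Its percentiles were 96.9, 99.2 and 98.8 in TetR-MYBTA, 99.4, 97.9 and 98.8 in TetR and 99.1, 99.5 and 99.0 in WT. All 9 values lay between 96.9 and 99.5, and the lines overlapped. Its peak centres fell within 69.0 bp of each other.

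The Nanog start itself was listed unevenly. The region over it (chr6:122707367-122707587, over the start of the gene and 122 bases of the printed stretch) had no peak in TetR-MYBTA, percentiles of 89.9, 85.9 and 88.9 in TetR, and 89.0 in WT replicate 3 alone. Where a peak was listed it was high in the list, and the nearest peak of a library without it was the enhancer, 4.58 kb away. Among the 10 stem cell markers Nanog was the 1 gene with a gene-end peak in all TetR and no TetR-MYBTA libraries, a pattern of 1.38% of all protein-coding genes.

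The distal enhancer of Nanog, 40 to 50 kb upstream, was open in every library at -44.5 kb (chr6:122662834-122663131). Its percentiles were 91.7, 86.5 and 90.5 in TetR-MYBTA, 96.8, 96.2 and 97.0 in TetR and 90.5, 90.5 and 91.1 in WT. The TetR libraries were the 3 highest. A region at -46.8 kb had a peak in TetR-MYBTA replicate 2 only, at 60.4.

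The downstream enhancer, 55 to 70 kb after the start and inside Slc2a3, the gene of a glucose transporter, held 5 regions. That at +63.0 kb (chr6:122770372-122770673) was in all 9 libraries, with a median percentile of 93.4 and a range of 90.3 to 97.0. The regions at +57.4 and +57.8 kb, 0.177 kb apart, had a peak in 7 and 6 libraries, and every library had at least 1 of them. Their percentiles ran from 86.2 to 97.2 and from 91.8 to 94.8. The remaining regions, at +55.2 and +65.4 kb, had a peak in 1 and 2 libraries.

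The highest place in the Nanog window was far from the gene. The region at +103.5 kb (chr6:122810895-122811136), 8.53 kb from Slc2a3 and outside any gene, lay at percentiles of 99.6 to 99.8 in all 9 libraries. Another leading region was at +119.1 kb, inside Foxj2, a forkhead factor gene, with a median percentile of 95.6 (91.8 to 97.3), below the Nanog enhancer at -4.8 kb. Upstream, the constant region at -98.9 kb lay inside Gdf3, a TGF-beta family gene expressed in stem cells, and those at -82.8 and -73.9 kb lay 1.59 and 3.19 kb from Dppa3, a maternal-effect gene also expressed in stem cells. Their median percentiles were 86.5, 91.3 and 74.6. The gene ends of Dppa3 had no peak in any library, and those of Gdf3 had one in 4.

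The comparison of the lines asked how open chromatin around the 3 genes differed when the cells carried TetR or TetR-MYBTA. Pou5f1 had 10, 9 and 5 peaks within 150 kb in TetR-MYBTA, 14, 10 and 10 in TetR and 16, 13 and 9 in WT. Sox2 had 13, 8 and 9 in TetR-MYBTA, 13, 14 and 12 in TetR and 9, 13 and 11 in WT. Nanog had 32, 31 and 27 in TetR-MYBTA, 38, 40 and 35 in TetR and 30, 29 and 32 in WT. The counts of TetR exceeded those of both other lines at Nanog, and all other groups overlapped or touched.

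Because the lists differ in length, the peaks were divided by all peaks of the list. The share at Pou5f1 was 0.0145 ± 0.00304% in TetR-MYBTA, 0.0174 ± 0.00241% in TetR and 0.0213 ± 0.00661% in the WT libraries (SD, n = 3 each). The share at Sox2 was 0.0186 ± 0.00404%, 0.0201 ± 0.00139% and 0.0183 ± 0.00236%. The share at Nanog was 0.0560 ± 0.00336%, 0.0581 ± 0.00350% and 0.0509 ± 0.00428%. The spread within a line was as large as most of these differences.

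None of the 3 genes passed the test between TetR-MYBTA and the other 6 libraries. The ratio of mean shares was 0.752 at Pou5f1 (two-sided exact permutation p = 0.226), 0.969 at Sox2 (exact p = 0.798) and 1.03 at Nanog (exact p = 0.714), beside a median ratio of 0.935 over all protein-coding genes. The Pou5f1 difference, -0.00480 percentage points, was -0.00302 without WT replicate 1 and -0.00306 without TetR-MYBTA replicate 3. For 3 against 6 libraries the smallest possible p is 0.0119, and for 3 against 3 it is 0.1, so the pairwise tests cannot pass 0.05. The labels do not say that the libraries came from separate cultures, so p-values measure the spread between these libraries, which may be technical. In the upper 50% of each list the Nanog share was higher in TetR-MYBTA by 0.0100 percentage points (exact p = 0.0476), an alternative among others in which the call was absent.

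Groups without overlap were found for 0 of the 3 genes between TetR-MYBTA and the other 6 libraries, where 7.43% of genes were higher and 17% lower. The count was also 0 of 3 between TetR-MYBTA and TetR (14.1% higher and 24.9% lower over all genes) and between TetR-MYBTA and WT (11.5% and 29.1%). Between TetR and WT it was 1 of 3: all Nanog shares of TetR lay above those of WT, at a ratio of 1.14 (exact p = 0.1, the smallest possible), where 9.64% of genes were higher and 15.3% lower. With 3 genes a count of 1 cannot be set apart from that background. Peaks on chromosome 6 made up 5.52 ± 0.0477% of the list in TetR-MYBTA, 6.02 ± 0.0307% in TetR and 5.64 ± 0.0310% in the WT libraries (SD, n = 3 each), so that it too was higher in TetR than in WT. As a share of chromosome 6 peaks, the Nanog window had 0.898, 1.01 and 0.984% in TetR and 0.934, 0.818 and 0.956% in WT, which overlap (exact p = 0.4), so the separation of the 2 lines at Nanog ended there. On chromosome 17, which carries Pou5f1, the shares were 3.95, 4.32 and 4.27%, and on chromosome 3, which carries Sox2, 6.36, 6.13 and 5.90%.

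**Figure D2:**
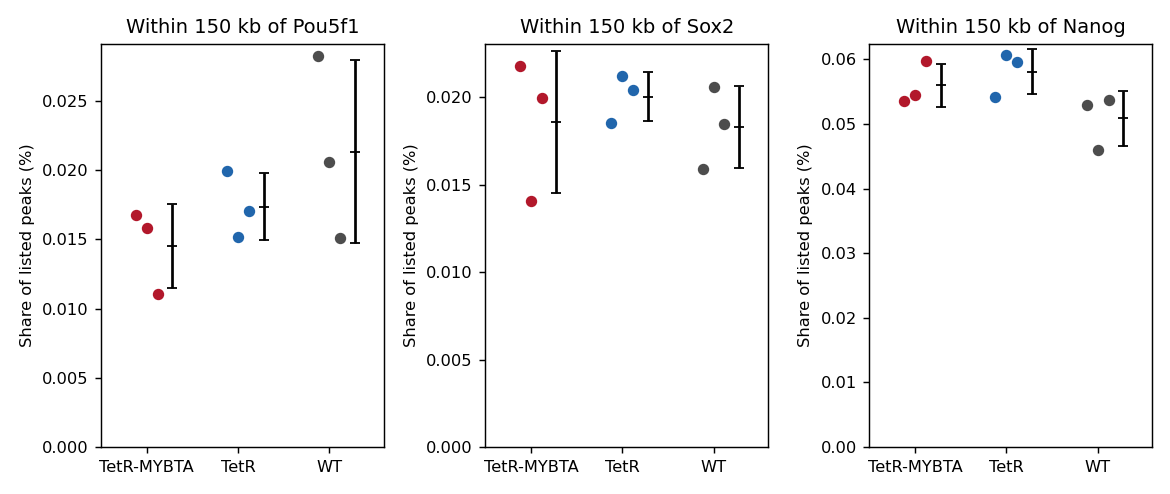
Share of listed peaks (%) that lie within 150 kb of Pou5f1, Sox2 and Nanog, 1 panel per gene with its own y axis from 0; points are libraries, and the bar beside them is the mean ± SD (n = 3). At Pou5f1 and Sox2 the 3 lines overlapped, and at Nanog all TetR points lay above all WT points.

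Turning to single regions, 9 of the 104 had a peak in all 3 libraries of 1 line and in none of another. A peak in TetR-MYBTA alone was found in 1 region (0.587% of all regions), and 2 regions lacked a peak in TetR-MYBTA alone (1.16%). Against TetR, 2 regions had a peak in TetR-MYBTA only (1.4%) and 5 in TetR only (4.43%). Against WT, 1 had a peak in TetR-MYBTA only (1.23%) and 2 in WT only (2.79%). Between TetR and WT, 1 was in TetR only (2.26%) and 2 in WT only (1.37%). Over 104 regions these counts were close to what the background shares give, so the regions below are a description of these loci and not an excess at them.

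The 2 regions missing in TetR-MYBTA alone were that inside Pou5f1 at +3.5 kb, described above, and that 8.5 kb after the Nanog start (chr6:122715855-122716172). The latter lies 1.22 kb beyond the end of Nanog and had percentiles of 70.7, 65.0 and 40.7 in TetR and 55.5, 76.1 and 61.4 in WT. Its nearest TetR-MYBTA peak was 3.88 kb away. With the region over the Nanog start, the surroundings of the gene thus held 2 regions with a peak in every TetR library and in no TetR-MYBTA library, while the enhancer at -4.8 kb had one in all 9.

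The region found in TetR-MYBTA alone lay at Nanog -63.1 kb (chr6:122644312-122644529), at the pseudogene Gm8460. Its percentiles were 51.4, 32.5 and 48.5, around or below the middle of the lists, and the nearest peak of another line was 3.45 kb away.

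Further regions separated single pairs of lines. Nanog -53.9 kb (chr6:122653487-122653752, between genes) had percentiles of 6.31, 29.8 and 10.7 in TetR, 13.4 in WT replicate 2 and no peak in TetR-MYBTA. Pou5f1 +42.8 kb (chr17:35548669-35548909), inside Cdsn, the gene of a skin adhesion protein, had 41.5, 19.4 and 32.3 in TetR, 33.0 and 21.8 in WT replicates 1 and 3, and no peak in TetR-MYBTA. Both were in the lower part of every list that held them.

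Nanog -17.2 kb (chr6:122690128-122690471, between genes) was present in TetR-MYBTA, at 56.6, 64.4 and 29.1, and in WT, at 41.5, 53.8 and 42.2, but not in TetR. TetR replicate 1 had a peak 0.13 kb from it, so that absence depends on where the edges were drawn. Pou5f1 +147.3 kb (chr17:35653159-35653415), 2.22 kb from Vars2, was present in WT, at 38.1, 34.5 and 41.2, and in TetR-MYBTA replicate 1, at 44.0, but not in TetR. The Sox2 +108.0 kb region, present in TetR and absent in WT, completes the 9.

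**Figure D3:**
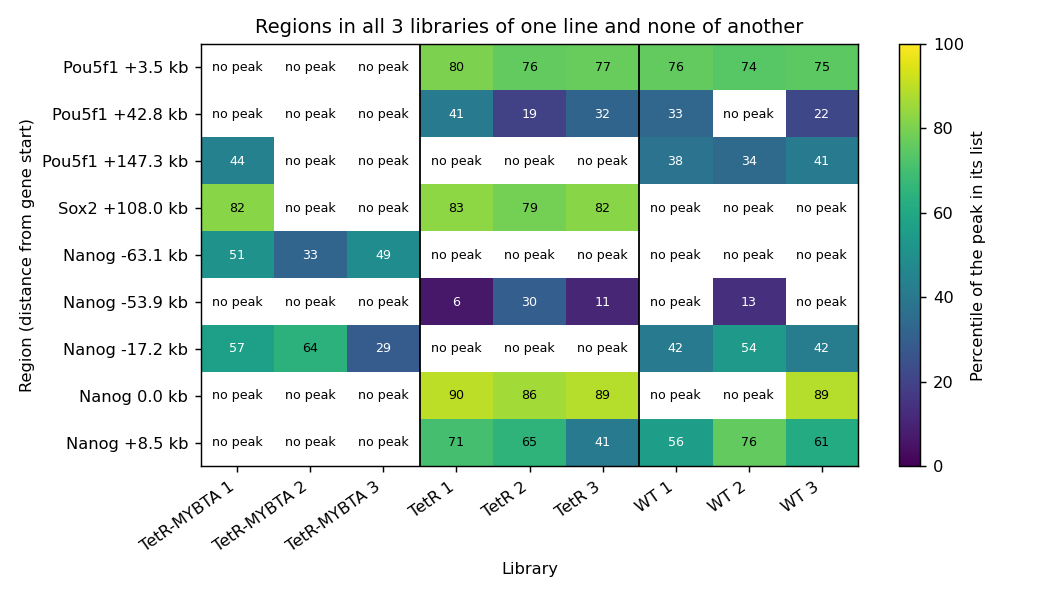
Percentile (100 = first in the list) of the 9 regions with a peak in all 3 libraries of 1 line and none of another; rows are regions, columns are libraries, numbers are rounded percentiles and white cells have no peak. The regions at Pou5f1 +3.5 kb, Sox2 +108.0 kb and the Nanog start were high in the lists that held them, and Nanog -53.9 kb was low.

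Not all variable regions were weak: 8 regions with a median percentile of at least 75 lacked a peak in some library, and 5 of them lay within 5 kb of a region present in all 9. The share lying this near was not counted for weaker variable regions or over the genome, so the 5 have no background. HOMER discards a candidate peak that does not stand 4-fold above the surrounding 10 kb. The headers give the share of candidates removed this way as 8.65 to 10.4% in TetR-MYBTA, 9.91 to 13.1% in TetR and 13.5 to 15.5% in the WT libraries. The share differed between the lines, and its part in the presence of these regions was not tested. TetR-MYBTA replicate 3, with the shortest list, had the fewest peaks near the 3 genes (41), where the other libraries had 48 to 65. A peak absent from a list may still be covered by tags below the threshold of 11 or 12.

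Regions with a peak in every list can be compared by place. The 24 members were ranked among the 26020 regions of the genome present in all 9 libraries, and differences were tested with limma on the normal score of the rank, adjusted over all 26020. Percentiles in the following paragraphs are among these 26020 regions.

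At Sox2 both constant regions in the window set for the distal control region had a call, in different comparisons. The +95.4 kb region lay at 82.1, 82.9 and 78.4 in TetR-MYBTA, 71.4, 68.7 and 69.7 in TetR and 56.4, 68.7 and 70.6 in WT, so that all TetR-MYBTA libraries lay above the other 6. Its normal score was higher in TetR-MYBTA than in the other 6 by 0.43 ± 0.14 (SE, limma adjusted p = 0.0484). The difference from TetR alone did not pass (0.36 ± 0.16, SE, limma adjusted p = 0.137), nor did that from WT alone (limma adjusted p = 0.0528). All TetR-MYBTA libraries also lay above the other 6 at Nanog -82.8, -73.9 and -37.9 kb, without a call. The share of all constant regions with this separation was not counted, so these separations are a description only. The +111.3 kb region lay at 79.4, 80.6 and 87.5 in TetR-MYBTA, 86.3, 88.4 and 86.7 in TetR and 92.5, 93.2 and 93.6 in WT. It was lower in TetR-MYBTA than in WT, by a difference of -0.54 ± 0.16 (SE, limma adjusted p = 0.0330), and the difference from the other 6 did not pass (limma adjusted p = 0.0702). TetR-MYBTA and TetR overlapped there, and their difference did not pass either (limma adjusted p = 0.414). No comparison called both regions, and whether their differences differ from each other was not tested.

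The order of the pair by mean percentile was thus +111.3 kb above +95.4 kb in TetR (87.2 ± 1.12 and 69.9 ± 1.37) and WT (93.1 ± 0.544 and 65.2 ± 7.70), while in TetR-MYBTA the means were 82.5 ± 4.36 and 81.1 ± 2.38 (SD, n = 3 each), closer than their spread. The +85.1 kb region, between genes, lay at 17.5, 5.33 and 7.58 in TetR and 20.7, 45.4 and 34.7 in WT, and was lower in TetR by -0.89 ± 0.25 (SE, limma adjusted p = 0.0443). The 3 TetR-MYBTA values, 33.1, 33.9 and 17.5, reached from the TetR into the WT range. The Sox2 start lay at 69.5 ± 1.29 in TetR-MYBTA, 64.6 ± 3.03 in TetR and 79.5 ± 3.23 in the WT libraries (SD, n = 3 each) and passed no test, the lowest adjusted p being 0.0714, for TetR against WT in limma.

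At Nanog the distal enhancer at -44.5 kb stood higher in TetR than in both other lines. It lay at 91.7, 90.9 and 93.6 in TetR, 82.1, 72.6 and 84.5 in TetR-MYBTA and 80.7, 78.5 and 80.9 in WT, without overlap between TetR and the rest. TetR-MYBTA was lower than TetR by -0.57 ± 0.16 (SE, limma adjusted p = 0.0325), and TetR was higher than WT by 0.57 ± 0.16 (limma adjusted p = 0.0469). These 2 comparisons share the TetR libraries. TetR-MYBTA and WT differed by 0.0019 ± 0.16 (limma adjusted p = 0.994). All TetR libraries also lay above the rest at Nanog +63.0 kb and Sox2 +145.7 kb, without a call. How many of all constant regions have TetR apart from the rest was not counted, so this is a description only.

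The other Nanog enhancers passed no test. The -4.8 kb region lay at 96.5 ± 2.88 in TetR-MYBTA, 97.0 ± 1.89 in TetR and 98.2 ± 0.482 in the WT libraries, and the +63.0 kb region at 86.1 ± 0.635, 89.9 ± 2.18 and 81.5 ± 3.67 (SD, n = 3 each). Near Dppa3, the -82.8 kb region lay at 88.3 ± 2.24 in TetR-MYBTA, 76.5 ± 3.31 in TetR and 77.3 ± 7.28 in the WT libraries, and missed the threshold against the other 6 libraries (0.45 ± 0.15, SE, limma adjusted p = 0.0550). The +103.5 kb region lay at 99.4 ± 0.220, 99.5 ± 0.168 and 99.6 ± 0.0879 in the same order of lines.

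At Pou5f1 the -2.0 kb enhancer lay at 68.6, 82.2 and 69.3 in TetR-MYBTA, 55, 56.5 and 66.5 in TetR and 77.1, 83.4 and 84.0 in WT. All TetR libraries lay below all others, as they also did at the Sox2 start. The share of all constant regions with TetR lowest was likewise not counted. The -2.0 kb enhancer was lower in TetR than in WT, by -0.66 ± 0.18 (SE, limma adjusted p = 0.0405), and the difference between TetR-MYBTA and TetR did not pass (0.40 ± 0.18, limma adjusted p = 0.145). The +10.9 kb region at Tcf19 and Cchcr1 lay at 74.4 ± 9.56, 76.2 ± 4.49 and 86.1 ± 5.66 in TetR-MYBTA, TetR and WT (SD, n = 3 each), with no call.

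Over the 24 regions the calls did not exceed the background. TetR-MYBTA against the other 6 libraries gave 1 higher and 0 lower, where 13.1% of the 26020 regions were higher and 11.9% lower. An unadjusted limma p under 0.05 was found there for 7 of the 24 (29.2%, beside 39.6% of all 26020). Against TetR there were 0 higher and 1 lower (11.7 and 10.3% over all), against WT 0 and 1 (11.3 and 10.8%), and TetR against WT gave 1 and 2 (6.06 and 6.62%). The unadjusted counts in these 3 comparisons were 6 (25%, beside 35.4%), 5 (20.8%, beside 38.6%) and 7 (29.2%, beside 30.5%). The median difference in normal score was 0.10, 0.13, 0.17 and -0.04 in these 4 comparisons, beside -0.04, -0.03, -0.03 and -0.0013 over all regions.

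Leaving out 1 library ended many of these calls. The Sox2 +95.4 kb call was lost when any 1 of the 9 libraries was left out (limma adjusted p from 0.0535 to 0.123). The TetR against WT calls at Pou5f1 -2.0 kb (0.0598 to 0.114) and Nanog -44.5 kb (0.0887 to 0.130) were likewise lost without any 1 of the 6 libraries compared. The Sox2 +85.1 kb call was lost without TetR replicate 2 or 3 or WT replicate 2 or 3 (limma adjusted p from 0.110 to 0.133). The Nanog -44.5 kb call against TetR was lost without TetR-MYBTA replicate 1 or 2 or any TetR library (0.0546 to 0.0985), and the Sox2 +111.3 kb call without TetR-MYBTA replicate 1 or 2 or any WT library (0.0673 to 0.0884). All of these fits kept the direction, and each has fewer samples than the full one. Ranking regions within their chromosome ended the calls at Sox2 +95.4 kb (limma adjusted p = 0.0737), Pou5f1 -2.0 kb (0.0524) and Nanog -44.5 kb (0.0687 against TetR-MYBTA and 0.0909 against WT), and ranks without the normal score ended those at Sox2 +85.1 kb (0.0689) and Nanog -44.5 kb against WT (0.0609).

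**Figure D4:**
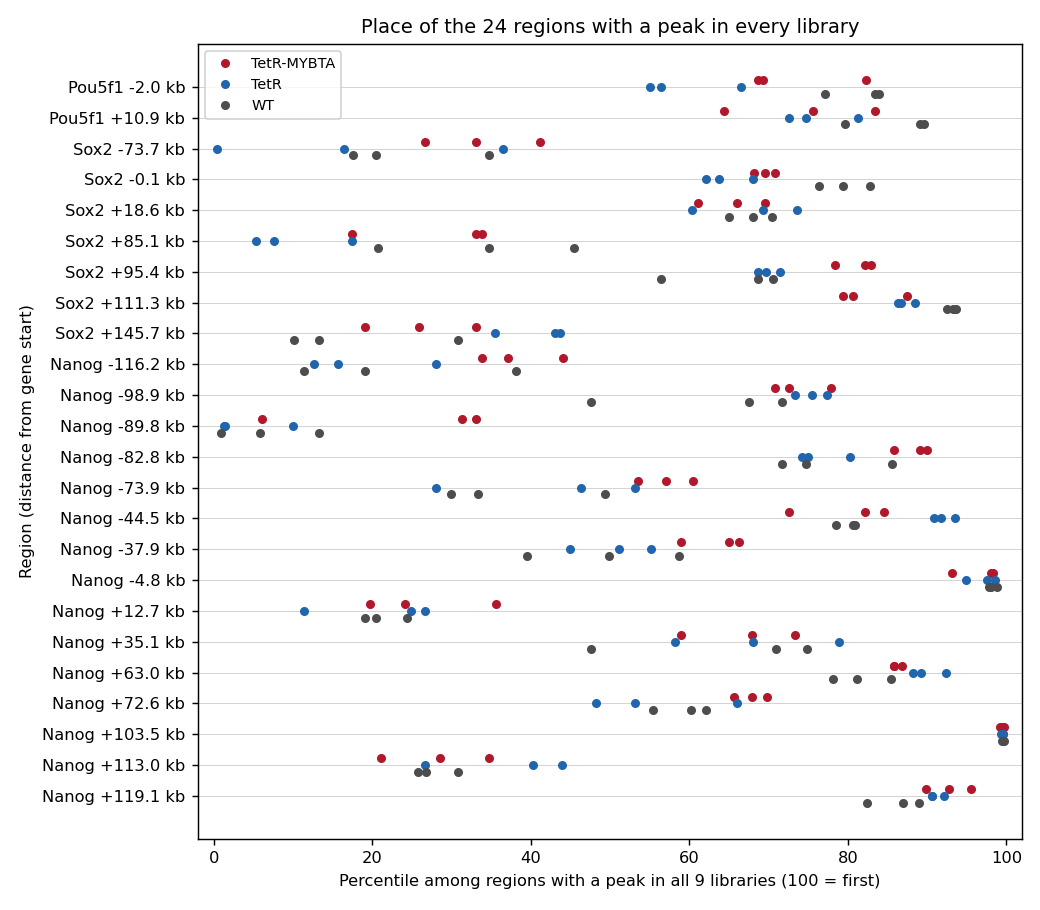
Place of the 24 regions near Pou5f1, Sox2 and Nanog with a peak in all 9 libraries; the x axis is the percentile among the 26020 such regions of the genome (100 = first), rows are regions by distance from the gene start, and each point is a library coloured by line. Sox2 +95.4 kb and Nanog -82.8, -73.9 and -37.9 kb had their 3 TetR-MYBTA points above the other 6. Nanog -44.5 and +63.0 kb and Sox2 +145.7 kb had their 3 TetR points above the rest. The share of all constant regions with either separation was not counted. Nanog -4.8 kb and +103.5 kb lay near 100 in every library.

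The wider network of pluripotency genes, 40 genes all matched by symbol or synonym, was read at its gene ends, since only presence is listed. A peak within 1 kb of a gene end was in all 9 libraries for 22 of 40 (55%), beside 44.2% of all protein-coding genes, and in none for 7 of 40, beside 37.5% of all. Those in all 9 included the naive factors Klf2, Klf4, Klf5, Tfcp2l1 and Tbx3, the germline and silencing factor Prdm14, the DNA demethylase Tet2, and Fgf4, a growth factor gene that Oct4 and Sox2 regulate together. Those in none were Nr5a2, Dppa3, Zfp42, Nacc1, Sall1, Thap11 and Esrrb. The lines had 25 to 28 genes with such a peak per library in TetR-MYBTA, 26 to 28 in TetR and 25 to 28 in WT.

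None of the 40 genes separated any pair of lines at its ends. For TetR-MYBTA against the other 6 libraries the counts were 0 present and 0 absent, beside 0.0731 and 0.557% of all genes. They were likewise 0 and 0 against TetR (0.196 and 1.38%), against WT (0.164 and 1.3%) and for TetR against WT (0.393 and 0.315%). Among 40 genes a count of 0 lies close to each of these shares. The 11 genes with a peak in some libraries leaned to no single line: Lefty1, a Nodal inhibitor, had a peak in 3 TetR, 1 TetR-MYBTA and 1 WT library, Tcl1 in 1, 2 and 3, and Gdf3 in 1, 2 and 1. These 3 were picked after their values were seen.

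Genes on other chromosomes whose share of peaks varied most like that of each gene over the 9 libraries were picked among those with a mean of at least 20 peaks within 150 kb. For Pou5f1 they were Gadd45a (Pearson r = 0.920), Haus4 (0.909) and Ajuba (0.884), of 2326 compared. For Sox2 they were Dst (0.940), Lrrc74a (0.870) and Irf2bpl (0.861), of 2365. For Nanog they were Dclk2 (0.931), Prss21 (0.889) and Myadm (0.874), of 2380. The 9 points share their list lengths, and the highest of so many values of r is a description only.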

How the data were processed

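Peak lists of 9 ATAC-seq libraries in 3 lines were used, grouped by title. Tools listed in the submitters' processing notes are HOMER 4.11, deepTools 3.5.5, Picard, Bowtie2, Trim Galore 0.6.10 and FastQC, with the build mm10. Per the file headers, HOMER called peaks in each library separately, without a control, at a false discovery rate of 0.001, 4-fold over the local 10 kb, a local Poisson p of 1e-04 and a threshold of 11 or 12 tags. The sources used here do not give how the Tn5 offset and blacklisted regions were handled. Column 5 of the deposited files, the score, is 1 throughout and ranks nothing. Starts and ends are the authors' positions, printed here counting from 1. Peaks of 1 list have 1 width, apart from 1 peak.

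Row order was taken as HOMER's order of peak score. It fell into 460 to 649 score levels per list, within which rows follow chromosome and position, the largest holding 1653 rows; peaks of a level were given its mean rank. Tag counts per peak were not used, so no counting interval is given. Genes came from RefSeq for GRCm38.p6 (21887 protein-coding), which gives gene ends but was not used for exons; promoter sequences of all 3 genes matched by symbol.

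Shares of peaks were tested by exact permutation, two-sided, and ranks of the regions in all 9 libraries by limma 3.58.1 in R 4.3.3, with 1 fit and Benjamini-Hochberg adjustment at 0.05. Presence was counted beside all union regions. Both scripts were tested on simulated data. The text names regions in windows around known enhancers, regions in all libraries of 1 line and none of another, the constant regions highest at each gene and genes they touch; others named add context. Members, windows and lists were chosen with earlier results of these data known. Alternatives were peak numbers, chromosome shares, equal-length lists, the upper 50% of lists, other distances, overlap rules and rank scales, a replicate block and leaving out each library. Other tools were scipy 1.17.1, pandas 2.3.3, numpy 2.4.6 and matplotlib 3.10.9 under Python 3.11.15.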

Additional observations from a re-analysis of the deposited data

How the results depend on the processing

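Of the 12 peak share differences (percentage points unless said), 9 turned around in sign under some alternative. In the upper 50% of lists they were 0.000958 (exact p = 0.810) at Pou5f1 and 0.00224 at Sox2 for TetR-MYBTA against the other 6, 0.00198 at Pou5f1 against WT, 0.00205 at Pou5f1 for TetR against WT, and 0.00703 at Nanog against TetR; the Nanog value against the other 6, 0.0100 (exact p = 0.0476), passed there. Within 50 kb they were 0.00139 at Pou5f1 for TetR against WT, -0.000788 at Sox2 against WT and -0.000370 at Nanog against the other 6. As numbers of peaks they were -1 at Sox2 against WT, -4 at Nanog against the other 6 and -0.333 at Nanog against WT. As chromosome shares they were -0.0181 at Sox2 against WT and 0.0489 at Nanog against TetR, and with equal-length lists -0.00295 at Sox2 against WT. Leaving out 1 library gave -0.00590 to -0.00302 (Pou5f1, other 6), -0.00706 to -0.000484 (Pou5f1, TetR against WT, the latter without WT replicate 1), -0.00219 to 0.00168 (Sox2, other 6), -0.00305 to 0.000810 (Sox2, TetR), -0.00132 to 0.00254 (Sox2, WT) and -0.000452 to 0.00270 (Nanog, other 6). The cause was not tested.

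Counts of regions present in 1 line and absent in another fell in the upper 50% of lists to 0 and 1 for TetR-MYBTA against the other 6, 0 and 2 against TetR, 0 in TetR-MYBTA only against WT and 0 in WT only against TetR. Merging peaks up to 200 bp apart, or asking for no peak within 1 kb, each left 1 in TetR-MYBTA only against TetR and 1 in WT only against TetR, and equal-length lists left 3 in TetR only against TetR-MYBTA. Leaving out 1 library asks for fewer libraries and gave 1 to 2 and 2 to 3 (other 6), 2 to 3 and 6 to 10 (TetR), 1 to 2 and 2 to 4 (WT), and 1 to 6 in TetR only and 2 to 4 in WT only; without TetR-MYBTA replicate 1 there were 10 in TetR only, and without WT replicate 3 there were 6 in TetR only against WT.

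Calls among the 24 constant regions moved by 1 or 2. Ranking within a chromosome gave 1 higher and 0 lower against TetR, and 0 higher and 1 lower for TetR against WT; fractional ranks gave 1 higher and 2 lower against WT. Leaving out 1 library gave 0 to 2 higher (other 6), 0 to 1 higher and 0 to 1 lower (TetR), 0 to 1 lower (WT) and 0 to 1 higher and 0 to 1 lower (TetR against WT). Row order without ties, added after the data were seen, changed none of the 6 named calls.

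Replicate numbers did not pair the libraries: deviations of same-numbered libraries correlated at -0.0169 to 0.0130 over 9 pairs. With the replicate block, calls were 1 higher against TetR, 0 lower against WT, and 0 higher and 0 lower for TetR against WT; of the 6 named calls, that at Nanog -44.5 kb against TetR-MYBTA was made there too. Within 2.5 kb, 29 network genes had a gene-end peak in all 9 libraries and 5 in none, beside 50.8% and 29.8% of all protein-coding genes. Depth limits presence calls, since a peak below 11 or 12 tags is not listed.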
